A study of Mus musculus with 12 samples.

Results

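The 10 genes described here encode chemokines, inhibitors and subunits of the transcription factor NF-κB, and enzymes that NF-κB is known to induce: Ccl20, Cxcl10, Ccl2, Nfkbia, Nfkbie, Nfkbiz, Nfkb2, Relb, Tnfaip3 and Birc3. They were chosen from measured values, the brightness of their probes and its differences between the groups of these same arrays, so their own levels and changes are given as a description, without p-values. Their probes were found by matching the accession of each non-control probe to RefSeq genes, which gave 13 of the 56605 probes on the array, with a pair of probes each for Nfkbiz, Nfkb2 and Relb. The members were 10 of the 26836 genes measured, and all 10 were retained by the filter on dim probes, which asked for a signal well above background in every replicate of some group. Of the 26836, 15983 had a gene symbol and the rest were counted by accession, so every share of all genes covers both kinds. Ccl2 passed that filter only in cells given both compounds, Birc3 only in untreated cells, and Ccl20 and Cxcl10 only in the groups in which they were high, so a difference between groups was built into their passing.

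The cells were mouse embryonic stem cells, and in every group the medium held LIF (leukaemia inhibitory factor) and 250 nM PD173074, which inhibits fibroblast growth factor receptors. There were 4 groups with 3 arrays each, which the study's design text calls biological replicates. In the first, cells received 1 µM MG132 for 30 min and then both MG132 and 250 nM 4OHT for 6 h. In the second, cells received 250 nM 4OHT alone for 6 h, and in the third, 1 µM MG132 for 30 min and then for a further 6 h. The fourth was untreated and titled as 0 h. No vehicle and no untreated culture at 6 h was labelled, so compound and time change together wherever untreated cells are the baseline. MG132 blocks the proteasome. 4OHT is 4-hydroxytamoxifen, an oestrogen receptor ligand that also activates engineered receptor fusions. No fusion protein is named in the labels, and the series title refers to transcription that depends on the proteasome and ERK.

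In resting cells NF-κB dimers are held in the cytoplasm by IκB proteins, and a signal that activates the IKK kinases leads to IκB phosphorylation, ubiquitination and destruction by the proteasome. The freed dimers enter the nucleus and switch on genes for chemokines and cytokines, as well as genes for IκB proteins, for NF-κB subunits and for the ubiquitin-editing enzyme A20, which shut the signal down again. The precursor p100, the product of Nfkb2, is also processed by the proteasome to its active form, and embryonic stem cells are known for a weak response to inflammatory signals.

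Levels are given as scaled intensity, the background-subtracted brightness of a probe after all arrays were brought to the same 75th percentile (309 to 485 intensity units before scaling, 419 after). Changes are log2 fold changes of these values with the standard error (SE) of a limma fit across all 12 arrays, with 3 arrays per group. Per array, 49.4% to 63.2% of probes were well above background, and precision is set by having 3 arrays a group. The 4OHT arrays scattered most around their group mean (SD over all genes 0.39 to 0.45 on the log2 scale, against 0.19 to 0.29 elsewhere). Slide 1 held the untreated and 4OHT arrays with replicates 1 and 2 of MG132, and slide 2 held replicate 3 of MG132 with the arrays given both compounds. Only MG132 spanned both slides. A fit with slide as a block therefore takes the slide difference from MG132 replicate 3 against replicates 1 and 2. Within slide 2, MG132 is that 1 array alone. In both cases slide and replicate cannot be told apart. All 11 embryonic stem cell markers examined were well above background on all arrays. Of 14 leukocyte markers, 9 were above background on all 3 arrays with both compounds and 6 in each other group, and their scaled intensities summed to 6005 to 6306 (both), 4066 to 4478 (4OHT), 4143 to 5039 (MG132) and 3154 to 3395 (untreated). Adgre1, Lyz2 and Aif1, which define macrophages and myeloid cells, were above background on no array. Of 13 fibroblast markers, 8 were above background on all 3 arrays with both compounds, 5 with 4OHT, 8 with MG132 and 9 in untreated cells, with summed scaled intensities of 23841 to 24412, 19999 to 27763, 25181 to 27506 and 17407 to 20436 in that order of groups. The part these marker levels play in the results was not tested. In RNA from whole cultures, fewer cells expressing a gene and less RNA per cell cannot be told apart.

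RefSeq places the 10 genes on the GRCm38.p6 assembly at chr1:83116766-83119167 (Ccl20), chr5:92346638-92348889 (Cxcl10), chr11:82035577-82037452 (Ccl2), chr12:55489409-55492647 (Nfkbia), chr17:45555700-45563169 (Nfkbie), chr16:55811375-55838954 (Nfkbiz), chr19:46300994-46312400 (Nfkb2), chr7:19606217-19629438 (Relb), chr10:19000910-19015410 (Tnfaip3) and chr9:7847468-7873205 (Birc3). RefSeq promoter windows of the same assembly, from 250 bases before to 50 bases after the annotated start, were at hand for 7 of the 10 genes: Ccl20, Cxcl10, Nfkbia, Nfkbie, Nfkb2, Tnfaip3 and Birc3. These genes had 10 windows, since some had more than 1. The usual κB consensus, searched on both strands, matched at least 1 window of 6 of these 7 genes, Birc3 being the exception. By window it matched 8 of the 10, beside 1480 of all 32851 windows (4.51%). A stricter κB form, ending in TTTCC, matched 4 of the 7 genes (Ccl20, Nfkbia, Nfkb2 and Tnfaip3). It matched 6 of the 10 windows, beside 535 of all windows (1.63%). Each of its matches in these genes overlapped a match of the consensus. The AP-1 motif TGANTCA matched 4 of the 7 genes (Cxcl10, Nfkbie, Nfkb2 and Tnfaip3). By window it matched 4 of the 10, beside 2565 of all windows (7.81%). The core of the interferon-stimulated response element, a pair of GAAA elements in either orientation, matched Cxcl10 alone of the 7. This was 1 of the 10 windows, beside 1131 of all windows (3.44%). A match is a description of the letters and not evidence of binding. The 250 bases before the start are printed for 4 genes on which the results below turn, a chemokine gene high with 4OHT, a chemokine gene high with MG132, an inhibitor gene that was lower with both compounds and a feedback gene that was higher with both. They are written 5′ to 3′ in the direction of the gene, with κB consensus matches in capitals.
Ccl20: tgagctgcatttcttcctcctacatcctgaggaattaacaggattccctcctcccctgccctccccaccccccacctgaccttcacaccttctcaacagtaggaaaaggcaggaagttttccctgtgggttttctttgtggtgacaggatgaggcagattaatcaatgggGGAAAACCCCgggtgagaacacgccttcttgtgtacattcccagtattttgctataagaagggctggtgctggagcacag
Cxcl10: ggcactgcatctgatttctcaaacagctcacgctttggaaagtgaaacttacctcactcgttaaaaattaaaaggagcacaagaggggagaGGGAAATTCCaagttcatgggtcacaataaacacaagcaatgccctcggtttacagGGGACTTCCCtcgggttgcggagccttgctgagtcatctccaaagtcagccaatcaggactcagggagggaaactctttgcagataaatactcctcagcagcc
Nfkbia: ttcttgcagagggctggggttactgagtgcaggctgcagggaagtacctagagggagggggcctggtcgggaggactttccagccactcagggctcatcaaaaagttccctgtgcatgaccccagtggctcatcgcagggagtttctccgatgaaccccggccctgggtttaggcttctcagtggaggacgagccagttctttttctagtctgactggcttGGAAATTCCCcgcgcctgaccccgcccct
Tnfaip3: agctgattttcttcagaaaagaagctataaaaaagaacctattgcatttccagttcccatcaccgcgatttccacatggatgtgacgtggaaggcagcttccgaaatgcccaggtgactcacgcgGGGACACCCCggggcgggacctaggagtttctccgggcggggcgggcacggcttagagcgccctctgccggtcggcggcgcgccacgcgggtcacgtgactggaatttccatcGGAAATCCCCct
They lie at chr1:83116516-83116765 (plus strand, Ccl20), chr5:92348890-92349139 (minus strand, Cxcl10), chr12:55492648-55492897 (minus strand, Nfkbia) and chr10:19015411-19015660 (minus strand, Tnfaip3). The Ccl20 match begins 80 bases before the start, the pair in Cxcl10 159 and 103 bases before it, the one in Nfkbia 29 and those in Tnfaip3 125 and 12 bases before it.

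The 3 chemokine genes followed different compounds. Ccl20 encodes the ligand of the receptor CCR6, which attracts lymphocytes and dendritic cells. Its scaled intensity was 4792, 4655 and 3057 on the arrays with both compounds, 6887, 7814 and 1754 with 4OHT alone, 2.96, 7.86 and 4.86 with MG132 alone, and 5.03, 7.16 and 2.34 in untreated cells. All 6 arrays given 4OHT were bright and none of the 6 arrays without it was well above background, so only bounds can be given for the fold. Ccl20 was at least 595-fold higher with 4OHT than in untreated cells, at least 534-fold higher with both compounds than in untreated cells, and at least 364-fold higher with both than with MG132 alone. Between both compounds and 4OHT alone the change was -0.16 ± 0.61 on the log2 scale, and the arrays overlapped. These groups lay on different slides, and with slide and replicate blocks the change was -1.52. From the dimmest to the brightest array the level differed 1.57-fold with both compounds and 4.46-fold with 4OHT alone, where replicate 3 was the dimmest.

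Cxcl10 encodes a ligand of CXCR3 and is best known as a gene induced by interferon. Its scaled intensity was 353, 344 and 477 with both compounds, 11.9, 11.2 and 6.55 with 4OHT, 160, 163 and 254 with MG132, and 3.95, 4.70 and 9.65 in untreated cells. Here the 6 arrays given MG132 were all bright, while only 1 array with 4OHT and 1 untreated array were well above background. The fitted log2 changes of Cxcl10 were 5.06 ± 0.35 for MG132 against untreated cells, 6.10 ± 0.35 for both against untreated cells and 5.34 ± 0.35 for both against 4OHT alone. Their size rests on baselines of which 2 of 3 arrays were not well above background, and with normexp correction they were 1.92, 2.81 and 2.42. Between 4OHT and untreated cells the change was 0.76 ± 0.35 and the arrays overlapped. Cells given both compounds lay above those given MG132 alone by 1.04 ± 0.35, with no overlap, and by 0.61 ± 0.24 on the arrays of slide 2. With slide as a block the change for both against untreated cells was 5.44. The order of the groups was thus both, MG132, then 4OHT and untreated cells, and the last pair did not differ beyond the spread.

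Ccl2, which encodes the monocyte attractant MCP-1, stayed near background. It had 12, 12.2 and 12.8 units with both compounds, 17.5, 5.92 and 7.10 with 4OHT, 4.18, 6.30 and 4.90 with MG132, and 4.04, 4.73 and 6.15 in untreated cells. All 3 arrays with both compounds and replicate 1 of 4OHT were well above background, and none of the other 8 arrays was. It was at least 1.61-fold higher with both than in untreated cells and at least 1.1-fold higher than with MG132 alone. The bound of 1.18-fold for 4OHT against untreated cells rests on replicate 1, without which the fitted change was 0.40 in place of 0.88. With normexp background correction, which compresses dim probes, the fitted log2 change of Ccl20 for 4OHT against untreated cells was 6.26 and that of Ccl2 for both compounds against untreated cells was 0.34.

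**Figure D1:**
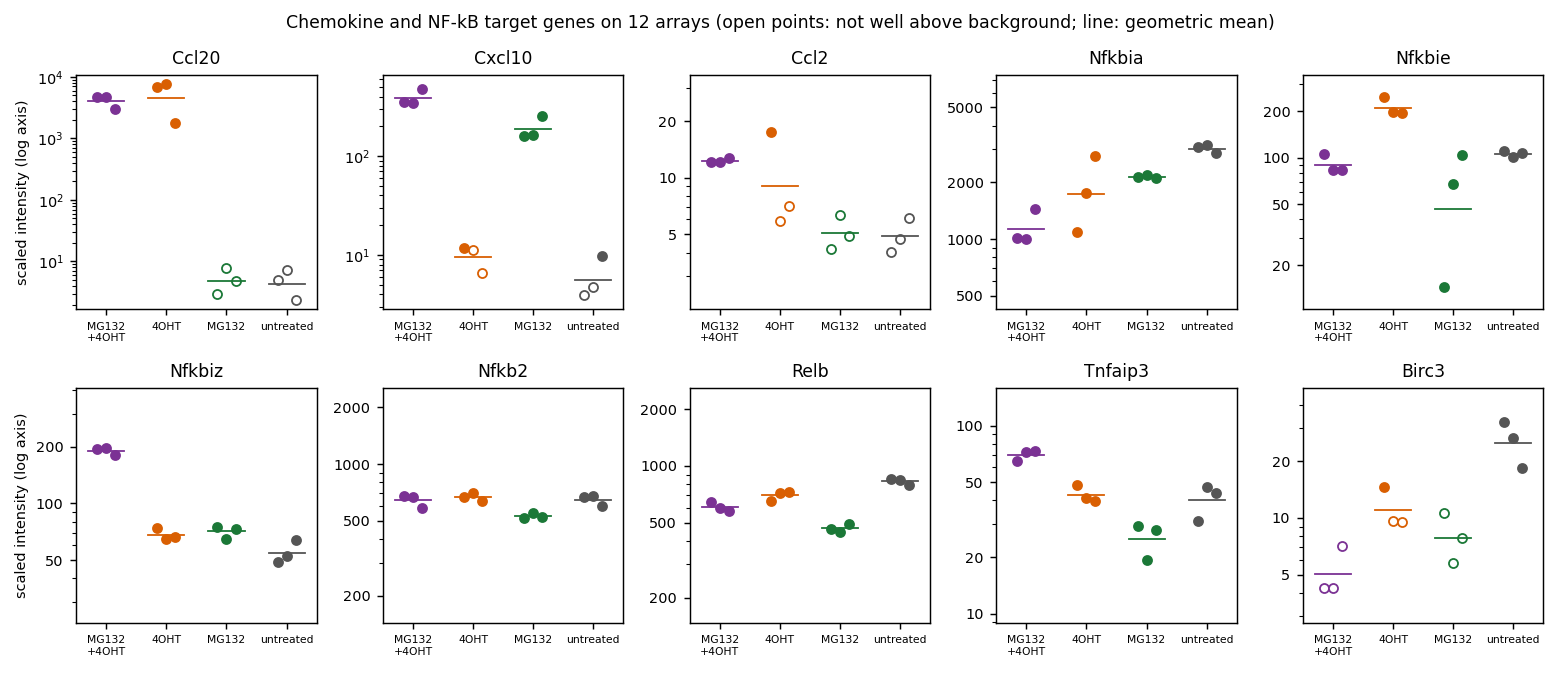
Scaled intensity of the brightest probe of each of the 10 genes on the 12 arrays (log axis, 1 point per array, line at the geometric mean of 3 arrays), with open points for arrays not well above background. Ccl20 is bright on the 6 arrays given 4OHT (1754 to 7814) and Cxcl10 on the 6 given MG132 (160 to 477), while Nfkb2 and Relb move little.

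Among the inhibitors, Nfkbia was lowest in cells given both compounds. Nfkbia encodes IκBα, the inhibitor that is destroyed and made again within each round of signalling. It had 1008, 1004 and 1452 units with both compounds, 1084, 1762 and 2746 with 4OHT, 2141, 2176 and 2119 with MG132, and 3067, 3156 and 2857 in untreated cells. All 9 treated arrays lay below the 3 untreated ones. The changes against untreated cells were -1.41 ± 0.28 for both, -0.80 ± 0.28 for 4OHT and -0.50 ± 0.28 for MG132. Cells given both were lower than those given MG132 alone by -0.92 ± 0.28, without overlap, and overlapped with those given 4OHT alone (-0.61 ± 0.28). The 4OHT arrays spread 2.53-fold, so that 4OHT and MG132 alone did not differ beyond their spread, and leaving out replicate 3 of every group gave -1.17 for 4OHT against untreated cells.

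Nfkbie encodes IκBε, a slower inhibitor of the same family. Its values were 107, 83.0 and 83.3 with both compounds, 248, 198 and 195 with 4OHT, 14.6, 67.6 and 104 with MG132, and 110, 101 and 108 in untreated cells. The 3 arrays with 4OHT alone lay above all others, by 1.00 ± 0.56 against untreated cells, and both compounds lay below 4OHT alone by -1.23 ± 0.56. The other 3 groups overlapped. Replicate 1 of MG132 decided the mean of its group, since the change for MG132 against untreated cells was -1.19 ± 0.56 with it and -0.34 without it, and that for both compounds against MG132 was 0.95 with it and 0.11 without it. With slide as a block the change for both compounds was -0.20 against MG132 and -1.96 (in place of -0.24) against untreated cells. That block rests on MG132 replicate 3 (104 units) set against replicates 1 and 2 (14.6 and 67.6 units).

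Nfkbiz encodes IκBζ, a nuclear protein that works with p50 to turn on a second set of target genes. It was highest where both compounds were given, at 194, 197 and 181 units, against 74.4, 64.7 and 66.1 with 4OHT, 75.4, 65.0 and 73.0 with MG132, and 48.7, 52.7 and 63.7 in untreated cells. The 3 arrays with both compounds stood clear of the other 9, and the 4OHT and MG132 groups overlapped each other. Both compounds gave 1.80 ± 0.12 against untreated cells, 1.42 ± 0.12 against MG132 and 1.48 ± 0.12 against 4OHT, while each compound alone gave 0.32 ± 0.12 (4OHT) and 0.38 ± 0.12 (MG132) against untreated cells. The second Nfkbiz probe, which is dimmer, had 44.0, 33.2 and 41.1 with both, 31.8, 207 and 13.8 with 4OHT, 9.50, 13.0 and 21.1 with MG132, and 16.8, 15.0 and 23.9 in untreated cells. Its 4OHT arrays spread 15.0-fold, and the probes differ in the contrast of both compounds with 4OHT alone, at 1.48 ± 0.12 for the brighter and -0.20 ± 0.77 for the dimmer. With the mean over the probes, the change for MG132 against untreated cells was -0.01.

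By their brightest probes, the subunit genes moved less than 2-fold in each comparison. Nfkb2 encodes p100, the precursor of p52, and Relb encodes the partner of p52 in the non-canonical pathway. Nfkb2 had 674, 669 and 584 units with both compounds, 668, 705 and 639 with 4OHT, 519, 550 and 522 with MG132, and 666, 680 and 600 in untreated cells. Only the MG132 arrays stood below the rest, by -0.29 ± 0.09 against untreated cells, and both compounds exceeded MG132 alone by 0.27 ± 0.09. The other changes of Nfkb2 were 0.05 ± 0.09 (4OHT against untreated), -0.01 ± 0.09 (both against untreated) and -0.06 ± 0.09 (both against 4OHT), and with median centring the first was -0.13 and the second -0.44. The second probe gave -0.25 ± 0.11 for MG132 against untreated cells and 0.18 ± 0.11 for both against MG132, where the arrays overlapped.

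Relb was lower in every treated group. It had 644, 599 and 576 units with both compounds, 653, 719 and 723 with 4OHT, 464, 447 and 493 with MG132, and 856, 838 and 793 in untreated cells. The 4 groups kept the order untreated, 4OHT, both and MG132 with no overlap between neighbours. The changes against untreated cells were -0.45 ± 0.09 for both, -0.25 ± 0.09 for 4OHT and -0.82 ± 0.09 for MG132. With MG132 present, 4OHT was accompanied by a higher level (0.37 ± 0.09, or 0.30 ± 0.12 within slide 2) and without it by a lower one, and the second Relb probe gave 0.32 ± 0.11 and -0.38 ± 0.11 for the same contrasts.

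**Figure D2:**
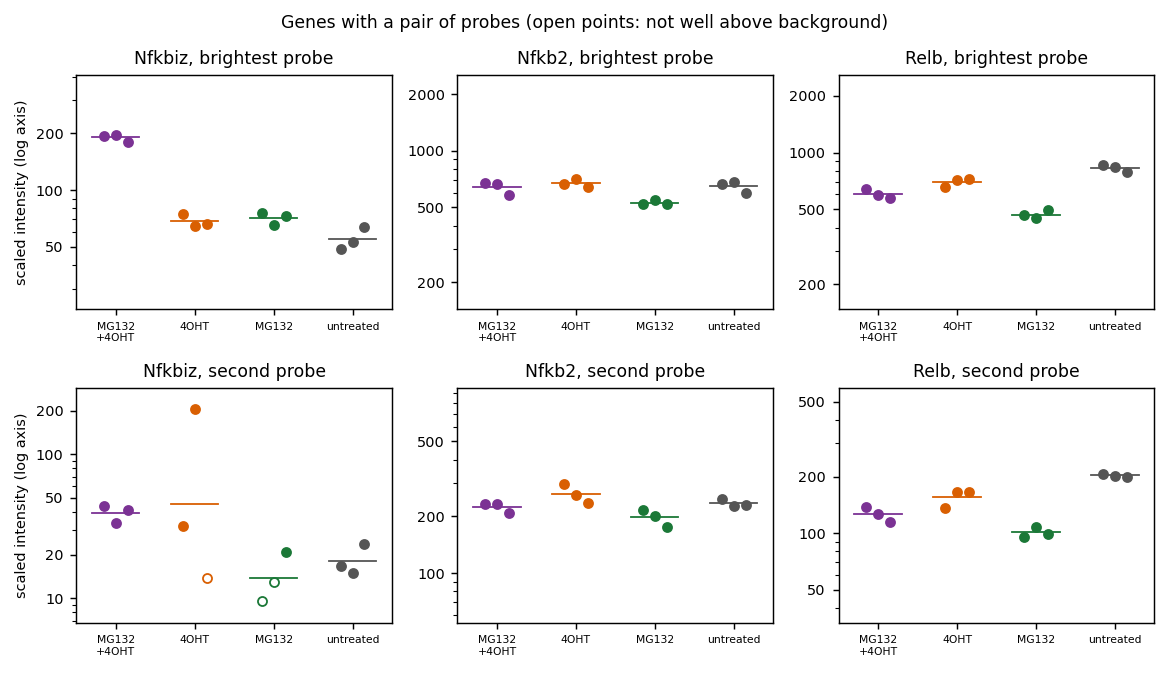
Scaled intensity of the brightest probe (upper row) and the second probe (lower row) of Nfkbiz, Nfkb2 and Relb on the 12 arrays (log axis, line at the geometric mean, open points not well above background). The Relb probes show the same order of groups, and 1 array with 4OHT (207 units) stands apart for the second Nfkbiz probe.

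Tnfaip3 encodes A20, which removes the ubiquitin chains that carry the NF-κB signal. Its values were 64.4, 72.3 and 73.7 with both compounds, 48.1, 41.4 and 39.6 with 4OHT, 29.3, 19.4 and 27.9 with MG132, and 31.3, 47.1 and 43.9 in untreated cells. Cells given both lay above all other arrays, MG132 arrays lay below all others, and 4OHT and untreated arrays overlapped. The change was 0.80 ± 0.19 for both against untreated cells, -0.68 ± 0.19 for MG132 against untreated cells and 0.10 ± 0.19 for 4OHT against untreated cells, the last being -0.08 with median centring. 4OHT given with MG132 was accompanied by a 2.79-fold higher level than MG132 alone (1.48 ± 0.19), and normexp correction gave 0.70 for this contrast.

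Birc3 encodes cIAP2, a ubiquitin ligase of the TNF receptor complex that also restrains the non-canonical pathway. It had 4.27, 4.24 and 7.07 units with both compounds, 14.6, 9.66 and 9.56 with 4OHT, 10.7, 5.75 and 7.81 with MG132, and 32.2, 26.7 and 18.4 in untreated cells. Only the untreated arrays and replicate 1 of 4OHT were well above background. Birc3 was at least 2.28-fold lower with both compounds and at least 2.23-fold lower with MG132 than in untreated cells. With 4OHT the fitted change was -1.18 ± 0.30, to which 1 of 3 arrays with 4OHT gave a signal well above background, so its size cannot be set beside these bounds. With normexp correction the changes were -0.19 for both, -0.24 for MG132 and 0.01 for 4OHT, so the direction for 4OHT depends on how the background was treated.

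Across the 10 genes, the arrays of 4OHT and untreated cells did not overlap for 3 members that were higher and 3 that were lower, where 21% and 19.9% of all genes behaved so (40.9% in either direction). For MG132 against untreated cells these were 2 higher and 5 lower members, against 33.3% and 26.2% of all genes (59.5% in either direction). Both compounds against untreated cells gave 5 higher and 3 lower members, against 44% and 28% (72% in either direction). With 4OHT added to MG132, 7 members were higher and 1 was lower than with MG132 alone, against 27.3% and 22.9% (50.2% in either direction). With MG132 added to 4OHT, 3 were higher and 3 lower than with 4OHT alone, against 33.7% and 23.8% (57.5% in either direction). The members were chosen with these contrasts known, so the counts describe the choice. The median log2 change of the members was 0.21, -0.40, 0.40, 1.00 and -0.11 in the order of these comparisons, beside 0.03, 0.07, 0.19, 0.07 and 0.13 for all genes. With bounded genes at their bound and genes below background in both groups left out, the member medians were 0.17, -0.59, 0.34, 0.95 and -0.03. The median of 1.00 for both against MG132 depended on the setting. It was 0.45 with slide as a block, 0.37 with normexp correction and 0.65 without MG132 replicate 1. For both against untreated cells, normexp correction gave a member median of 0.16, beside 0.21 for all genes.

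**Figure D3:**
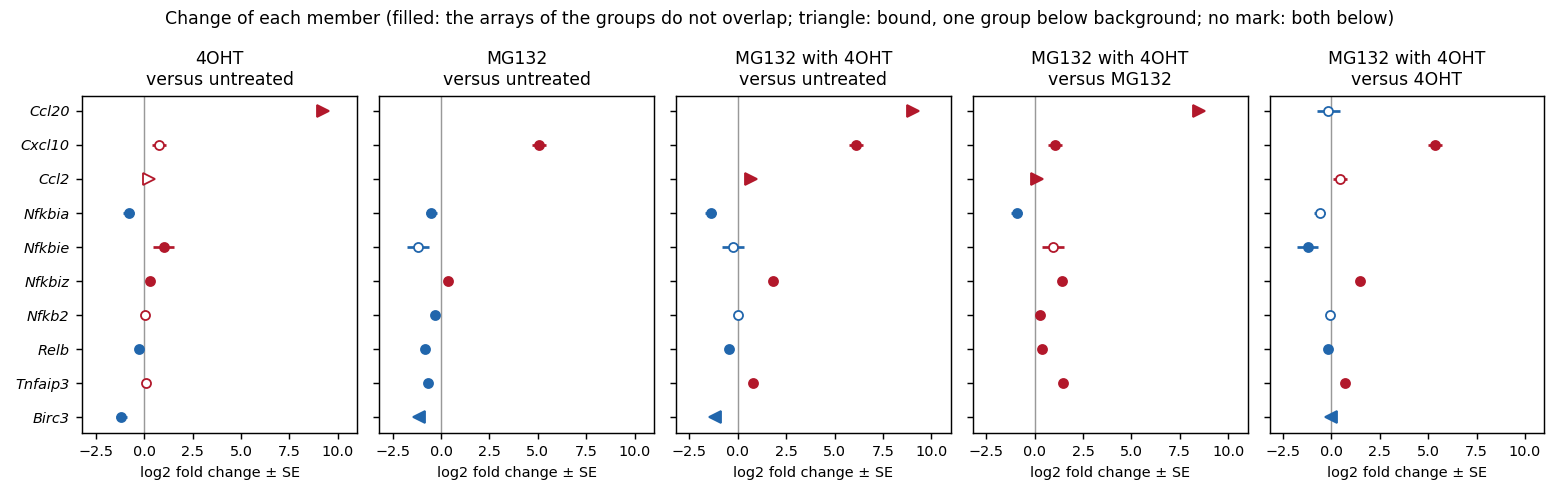
Log2 fold change with its SE for each member in 5 comparisons (red higher, blue lower in the group named first, filled where the 3 arrays of the groups do not overlap). Triangles are bounds, drawn without an SE where 1 of the groups was below background, and no mark is drawn where both were. Ccl20 lies farthest to the right in the 3 comparisons of 4OHT with no 4OHT (at least 364-fold to at least 595-fold), and Cxcl10 does so for MG132 against untreated cells and for both compounds against 4OHT alone (5.06 and 5.34).

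By the brightest probes, the 4OHT response was larger in the presence of MG132 than in its absence for Tnfaip3 and Nfkbiz, and of opposite direction for Relb. The second Nfkbiz probe did not show this, with responses of 1.51 and 1.3 and a difference of 0.21 ± 1.1. That probe was dimmer and spread 15.0-fold over the 4OHT arrays. The values that follow are those of the brightest probes. It was 1.48 with MG132 and 0.10 without it for Tnfaip3, 1.42 and 0.32 for Nfkbiz, and 0.37 and -0.25 for Relb, so that the difference between the responses was 1.38 ± 0.27, 1.1 ± 0.16 and 0.62 ± 0.12. The responses were -0.92 with MG132 and -0.80 without it for Nfkbia, 0.27 and 0.05 for Nfkb2, and 0.95 and 1.00 for Nfkbie. For Cxcl10 they were 1.04 and 0.76, the second of which compares groups with 1 of 3 arrays each well above background. No difference of responses is given for Ccl20, Ccl2 and Birc3, since groups on which it would rest were below background. Normexp correction brought the difference for Tnfaip3 to 0.49 and that for Nfkbiz to 0.65.

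Likeness in pattern was described by Pearson correlation of log2 values over the 12 arrays, which share 4 groups and 2 slides. The genes most like Ccl20 were Ercc1 (0.991), Plaur (0.988) and Dusp4 (0.987), and those most like Cxcl10 were Zfand2a (0.995), Vps37b (0.994) and Morc4 (0.994). Nfkbiz was closest to Rbm15 (0.995), Hinfp (0.988) and Clu (0.976), and Nfkbia to Tcea3 (0.982), Mettl1 (0.980) and Coa4 (0.969). For Relb they were Tceal9 (0.968), Kdm5c (0.965) and Map1lc3b (0.963), and for Nfkbie Adk (0.958), Pet117 (0.927) and Krtap16-1 (0.919). The remaining lists were Capn9 (0.954), 4921511I17Rik (0.934) and Klk12 (0.934) for Ccl2, Nxt2 (0.936), S100pbp (0.929) and 1700096K18Rik (0.927) for Nfkb2, Ccdc71l (0.938), Dcbld2 (0.931) and Fam214b (0.918) for Tnfaip3, and Ckap2l (0.951), Fzr1 (0.950) and Trim3 (0.942) for Birc3. Among the members themselves the closest pairs were Ccl20 with Ccl2 (0.80), Cxcl10 with Nfkbiz (0.77) and Nfkb2 with Relb (0.77), and the most opposed were Ccl2 with Nfkbia (-0.85) and Cxcl10 with Birc3 (-0.84). Ccl20 and Cxcl10 were hardly related (0.17). Ccl2 and Birc3 were not well above background on most arrays. The same held for Ccl20 on arrays without 4OHT and for Cxcl10 on most arrays without MG132. Correlations with these 4 genes therefore rest in part on values near background.

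Other genes of the pathway were taken from 8 lists that hold 181 genes, of which 177 had a probe and 120 could be tested. They were tested with limma and Benjamini-Hochberg adjustment over all 26836 genes at 0.05. Some passed the filter on dim probes only through groups in which they were high. Cd44, Cxcl1, Ccr4 and Il1r1 are such genes among those named below. A difference between groups was built into their passing, so their adjusted p-values are not independent support for it. The pathway genes all have a symbol, while the shares of all genes set beside them include entries without one. Whether this accounts for the differences between the shares was not tested. The lists were also chosen with earlier results of these data known. The shares here and below therefore describe the choice and cannot show that the pathway responded more than other genes. For 4OHT against untreated cells 34 were higher and 28 lower (51.7% called), where 13.9% of all genes were higher and 14.7% lower (28.6% called). For MG132 against untreated cells 38 were higher and 29 lower (55.8%), beside 24.1% and 19% of all genes (43.1%). Both compounds against untreated cells gave 50 higher and 30 lower (66.7%), beside 33.2% and 22.5% (55.6%). Against MG132 alone both compounds gave 31 and 15 (38.3%), beside 13.9% and 12.6% (26.5%), and against 4OHT alone 46 and 28 (61.7%), beside 29.4% and 20.9% (50.2%). The median changes were -0.01, 0.05, 0.26, 0.11 and 0.23 in this order. With median centring, which lowers the median change of all genes to -0.15, -0.28, -0.23, 0.00 and -0.11, the splits were 23 higher and 32 lower for 4OHT, 17 and 47 for MG132, 34 and 43 for both against untreated cells, and 32 and 37 for both against 4OHT. With slide as a block, 41 of the genes were called for both against untreated cells, 23 for both against MG132 and 30 for both against 4OHT. In all genes named below as called, except Ccr8, the 3 arrays of the groups compared did not overlap, and limma's adjusted p is given.

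Of 31 other chemokine genes 8 could be tested, with 2 higher and 3 lower with 4OHT, 4 higher and 1 lower with MG132, and 4 higher and 1 lower with both against untreated cells. Cxcl14 rose in every treated group, with 441, 419 and 551 units with both compounds, 319, 323 and 299 with 4OHT, 145, 147 and 216 with MG132, and 43.5, 32.7 and 53.0 in untreated cells. Its changes against untreated cells were 3.47 ± 0.20 (adjusted p = 7.6e-07), 2.89 ± 0.20 (adjusted p = 5.2e-06) and 1.98 ± 0.20 (adjusted p = 4.2e-05) for both, 4OHT and MG132, of which the last was not called with the mean over the probes of Cxcl14 (1.09, adjusted p = 0.21). Cxcl16, a membrane-bound chemokine, rose by 2.59 ± 0.13 with both (adjusted p = 3.3e-07) and 1.95 ± 0.13 with MG132 (adjusted p = 3.2e-06). It was also higher with 4OHT alone, at 106, 111.6 and 110.5 units, against 25.7, 23.5 and 33.3 in untreated cells. The MG132 arrays had a similar level (104.9, 103.1 and 106.7). Cxcl1, a neutrophil attractant and classic NF-κB target, was not well above background with 4OHT or in untreated cells, and was at least 3.89-fold higher with both compounds (adjusted p = 0.0015, against an adjusted p of 0.21 with slide as a block) and at least 3.99-fold higher with MG132 (adjusted p = 0.002) than in untreated cells. Ccl25 fell to 48.8, 46.9 and 82.6 units with 4OHT, against 387, 362 and 450 in untreated cells (-2.79 ± 0.20, adjusted p = 5.3e-06), and Cxcl12 fell by 2.39 ± 0.59 (adjusted p = 0.013), though only by 0.27 with normexp correction (adjusted p = 0.14). Cx3cl1 was 2.19 ± 0.14 higher with both than with 4OHT alone (adjusted p = 1.5e-06).

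Of 22 chemokine receptor genes 6 could be tested. They were Ccr4, Ccr8, Ccr10, Cxcr4, Ackr1 and Ackr3. With 4OHT none was higher and 1 lower, with MG132 1 was higher and 2 lower, and with both compounds 1 was higher and none lower, each against untreated cells. Ccr4 rose to 42.3, 33.0 and 33.8 units with both compounds, against 7.42, 14.6 and 15.2 with MG132 alone (1.61 ± 0.25, adjusted p = 0.0013, but 0.11 with slide and replicate blocks), and was at least 4.72-fold higher than in untreated cells (adjusted p = 1.4e-05). Cxcr4, the receptor of Cxcl12, was at least 2.28-fold lower with 4OHT than in untreated cells (adjusted p = 0.0056), a call that was lost with normexp correction (-0.02, adjusted p = 0.91). Ackr3 fell by 1.17 ± 0.33 with MG132 (adjusted p = 0.016), a call that was lost without untreated replicate 3 and without MG132 replicate 1 or 2 (adjusted p up to 0.061).

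Among 11 receptors upstream of NF-κB, 4 were higher and 2 lower with 4OHT, 6 higher and 1 lower with MG132, and 5 higher and 1 lower with both against untreated cells. Tnfrsf12a, the receptor of the cytokine TWEAK, had 8692, 7650 and 5840 units with both compounds, 5055, 6143 and 3416 with 4OHT, 1162, 1238 and 993 with MG132, and 754, 797 and 704 in untreated cells. It rose by 2.66 ± 0.21 with 4OHT against untreated cells (adjusted p = 1.3e-05) and by 2.70 ± 0.21 with both against MG132 (adjusted p = 3.5e-05). Il1r1, the signalling receptor of interleukin-1, rose in the same contrasts by 2.95 ± 0.51 (adjusted p = 0.0017) and 3.15 ± 0.51 (adjusted p = 0.0019). Its untreated values were dim (9.11, 13.2 and 3.45 units), with 1 of 3 arrays well above background. In other settings the changes of Il1r1 were as low as 0.93 and 1.55, and were still called. Tnfrsf25, the death receptor DR3, had 324, 336 and 528 units with both compounds, 1059, 1044 and 1857 with 4OHT, 772, 744 and 906 with MG132, and 282, 313 and 419 in untreated cells. It rose with 4OHT alone (1.93 ± 0.26, adjusted p = 4e-04) and fell with both against MG132 alone (-1.06 ± 0.26, adjusted p = 0.015), the last not called with slide as a block (-1.23, adjusted p = 0.075) or without replicate 1 or 2 of both compounds (-0.93 and -0.96).

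Of 27 kinases and adaptors, 9 were higher and 4 lower with 4OHT, 7 higher and 7 lower with MG132, and 12 higher and 11 lower with both against untreated cells. Map3k14, which encodes the kinase NIK of the non-canonical pathway, rose in every treated group, with 488, 528 and 521 units with both compounds, 319, 266 and 187 with 4OHT, 356, 362 and 382 with MG132, and 91.3, 100 and 106 in untreated cells. Its changes were 2.37 ± 0.16 (adjusted p = 2.1e-06), 1.35 ± 0.16 (adjusted p = 0.00019) and 1.89 ± 0.16 (adjusted p = 1.6e-05). Card10, the scaffold CARMA3, rose by 1.65 ± 0.15 with 4OHT (adjusted p = 2.9e-05) and by 0.90 ± 0.15 with both against MG132 (adjusted p = 0.0021, but 0.094 with slide and replicate blocks). Ripk1, the kinase of the TNF receptor complex, fell by 1.03 ± 0.11 with MG132 (adjusted p = 6.3e-05). Rnf31, the catalytic subunit of the linear ubiquitin ligase, fell by 1.28 ± 0.09 with both against untreated cells (adjusted p = 2.2e-06), and its partner Rbck1 fell by 0.86 ± 0.12 with both against MG132 (adjusted p = 0.00079, but 0.051 within slide 2).

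Of the 6 other Rel and IκB family genes, 4 were higher with 4OHT and none lower, none higher and 2 lower with MG132, and 2 higher and 2 lower with both against untreated cells. Bcl3, a nuclear IκB protein, rose with 4OHT alone and fell wherever MG132 was given. It had 1776, 1736 and 2097 units with both compounds, 13777, 15758 and 15764 with 4OHT, 2665, 2458 and 2696 with MG132, and 7246, 7576 and 9271 in untreated cells. Its changes were 0.92 ± 0.12 for 4OHT (adjusted p = 0.00032), -1.62 ± 0.12 for MG132 (adjusted p = 6.5e-06) and -3.02 ± 0.12 for both against 4OHT (adjusted p = 1.5e-07). Nfkb1, which encodes p105 and p50, rose by 0.72 ± 0.15 with 4OHT (adjusted p = 0.0045), and Rela, the p65 subunit, by 0.59 ± 0.13 (adjusted p = 0.0077, but 0.05 and not called with only the arrays compared). Nfkbid, another nuclear IκB gene, fell by 1.13 ± 0.17 with MG132 (adjusted p = 0.00051).

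Of 14 other brakes on the pathway, 4 were higher and 3 lower with 4OHT, 2 higher and 4 lower with MG132, and 3 higher and 3 lower with both against untreated cells. Zfp36, which encodes the mRNA-destabilising protein tristetraprolin, had 546, 549 and 648 units with both compounds, 1164, 1234 and 1119 with 4OHT, 123, 109 and 132 with MG132, and 275, 262 and 341 in untreated cells. It rose by 2.01 ± 0.13 with 4OHT against untreated cells (adjusted p = 2.7e-06) and by 2.26 ± 0.13 with both against MG132 (adjusted p = 6.6e-06), and fell by 1.26 ± 0.13 with MG132 (adjusted p = 3.5e-05). Birc2, which encodes cIAP1, the close relative of the Birc3 product, fell by 1.21 ± 0.10 with both (adjusted p = 6.4e-06) and by 0.72 ± 0.10 with MG132 (adjusted p = 0.00028), each against untreated cells.

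The 32 other NF-κB target genes had 9 higher and 9 lower with 4OHT, 15 higher and 8 lower with MG132, and 19 higher and 6 lower with both against untreated cells. Ptgs2, which encodes cyclooxygenase 2, had 257, 263 and 293 units with both compounds, 276, 291 and 158 with 4OHT, 34.0, 33.0 and 38.8 with MG132, and 23.5, 22.1 and 21.7 in untreated cells. Like the chemokine gene Ccl20 it was high on the 6 arrays with 4OHT, rising by 3.38 ± 0.20 with 4OHT (adjusted p = 1.9e-06) and by 2.94 ± 0.20 with both against MG132 (adjusted p = 1.7e-05). Tap1, a peptide transporter for antigen presentation, had 81.2, 70.9 and 151 units with both compounds, 11.6, 4.99 and 7.06 with 4OHT, 177, 264 and 315 with MG132, and 29.7, 22.7 and 39.5 in untreated cells. It rose with MG132 by 3.04 ± 0.38 (adjusted p = 0.00014) and was at least 6.53-fold higher with both than with 4OHT alone (adjusted p = 3.3e-05). Cd44, a receptor for hyaluronan, was at least 14.3-fold higher with both compounds (adjusted p = 3.2e-06) and at least 5.24-fold higher with MG132 (adjusted p = 3.7e-05) than in untreated cells, where it was not well above background. Ier3 rose with both against MG132 by 3.08 ± 0.66 (adjusted p = 0.0074), and was not called with slide as a block (2.05). Its size leans on replicate 1 of MG132, which had 24.6 units against 208.1 and 207.5 in replicates 2 and 3. With both compounds Ier3 had 944, 868 and 781 units, and the lowest change in other settings was 1.94.

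The 16 interferon response genes, listed because Cxcl10 is also an interferon target, had 2 higher and 6 lower with 4OHT, 3 higher and 4 lower with MG132, and 4 higher and 6 lower with both against untreated cells. Isg20, an exonuclease, had 371, 436 and 537 units with both compounds, 57.7, 42.7 and 49.8 with 4OHT, 135, 144 and 206 with MG132, and 64.5, 45.2 and 70.9 in untreated cells. Like Cxcl10 it was highest with both compounds and next highest with MG132, and its 4OHT and untreated arrays overlapped. The changes of Isg20 were 2.90 ± 0.22 for both (adjusted p = 4e-06) and 1.42 ± 0.22 for MG132 (adjusted p = 0.00059) against untreated cells. Ddx58, the RNA sensor RIG-I, moved the other way: it rose by 1.91 ± 0.17 with 4OHT (adjusted p = 3.1e-05) and fell by 1.81 ± 0.17 with MG132 (adjusted p = 2.9e-05). Ifi35 fell by 1.75 ± 0.23 with 4OHT (adjusted p = 0.00033).

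**Figure D4:**
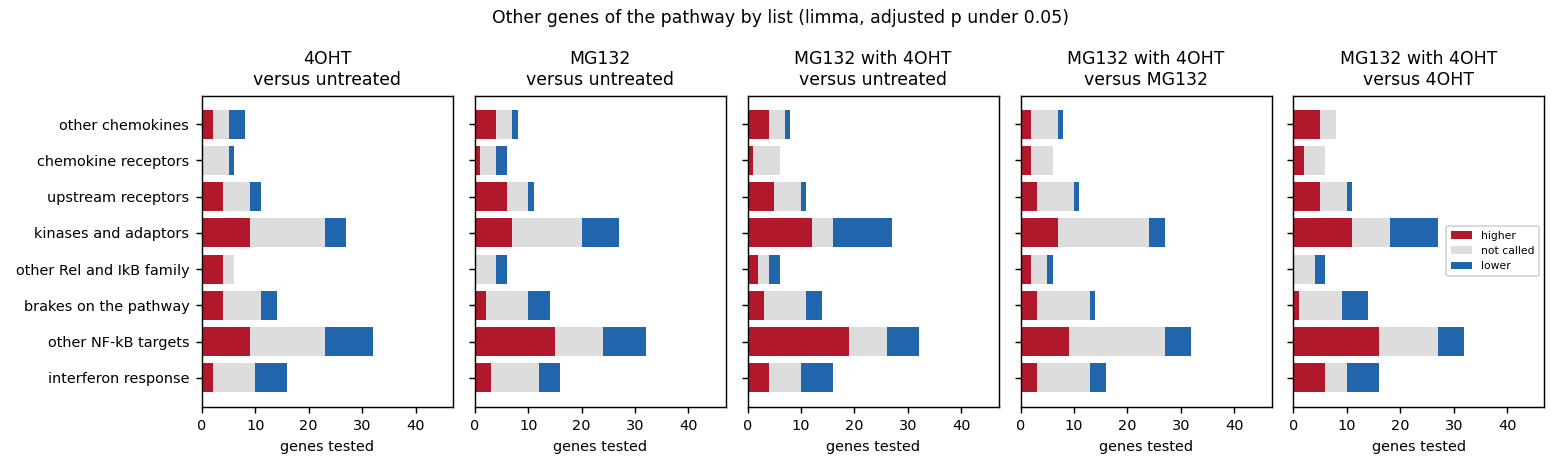
Number of genes tested in each of the 8 lists and how many were higher (red), lower (blue) or not called (grey) in 5 comparisons (limma, adjusted p under 0.05). The list of other NF-κB targets has 15 higher and 8 lower of 32 with MG132, and the Rel and IκB family has 4 higher and none lower of 6 with 4OHT.

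A different 4OHT response in the presence of MG132 than in its absence was called for 15 of the 120 genes (12.5%, beside 6.55% of all genes), 8 more positive and 7 more negative (beside 2.94% and 3.61% of all genes). The most negative were Tnfrsf25, Tnfaip2, Bcl3 and Cxcl14, and the most positive Ccl25, Isg20 and Cx3cl1. Bcl3 gave -0.48 with MG132 and 0.92 without it (difference -1.40 ± 0.17, adjusted p = 0.0018), opposite in sign to the pair of values of Relb. The value of -0.48 was not called with slide as a block or within slide 2.

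**Figure D5:**
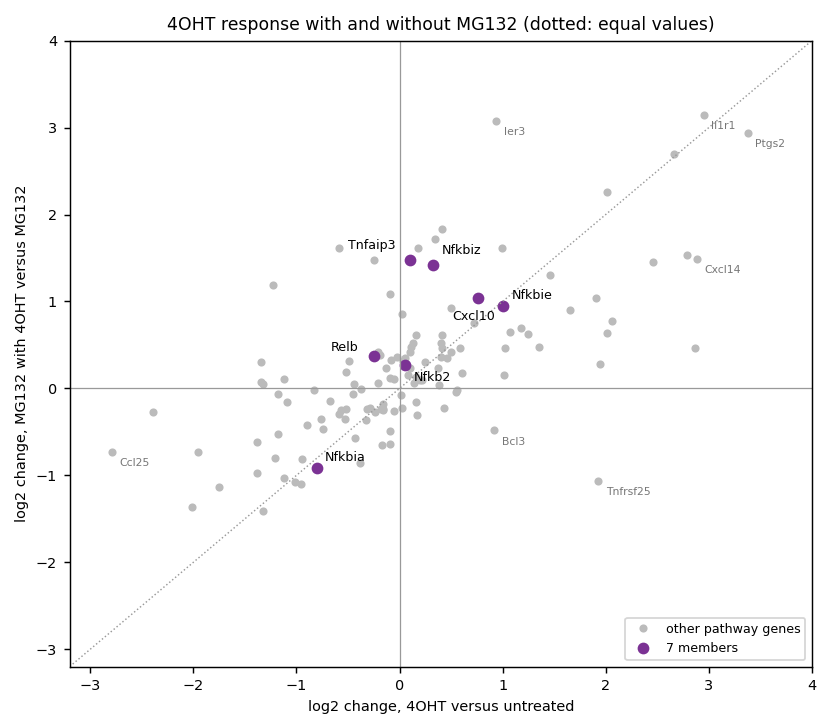
Log2 change with 4OHT in the presence of MG132 (vertical axis) against that in its absence (horizontal axis) for 7 members and the other pathway genes. Each gene is shown by its brightest probe, with equal values on the dotted line. Ccl20, Ccl2 and Birc3 are not drawn, since groups they rest on were below background. Tnfaip3 (1.48 and 0.10) and Nfkbiz (1.42 and 0.32) lie well above the line, and Bcl3 and Tnfrsf25 below it.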

How the data were processed

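RNA from 12 samples of mouse embryonic stem cells was extracted on columns with DNase treatment, dye-labelled (Cy3) and read on 1-colour Agilent mouse arrays, as the labels' protocols record. The authors deposited processed intensity values, which Feature Extraction 11.0.1.1 had background-subtracted and detrended within each array, per the file headers. The series-wide deposited table held the same intensities. The design text calls the replicates biological and does not say how they were separated.

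Control spots (3671) were left out, spots of a probe were averaged, intensities were divided by each array's 75th percentile and brought to a common one of 419, and log2 was taken. Accessions were matched to RefSeq, which named 32994 probes (58.3%). The brightest probe stood for a gene. A probe entered where some group had it clear of background in each of its 3 replicates (34327 probes, 26836 genes). One linear model over the 4 groups was fitted with limma 3.58.1 in R 4.3.3 across all genes (lmFit and eBayes, 8 residual degrees of freedom), with Benjamini-Hochberg adjustment at 0.05, after a test on simulated data. An exact test of 3 against 3 arrays could not go below p = 0.1. Where a probe was not well above background on any array of a group, the fold is a bound: the mean of the brighter group against, for each dim array, whichever is larger, that probe's value or the dimmest value that counted as well above background there.

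The members and the gene lists were chosen with earlier results of these data known. Named genes were all members, up to 3 called genes per pathway list and comparison with the largest change, and the 3 genes most like each member. Other settings tried were normexp background correction (on median spot signals, since mean signals were not used here), quantile and median scaling, other filters, the mean over probes, slide and replicate blocks, single slides, only the arrays compared, the series-wide table and leaving out each array. Leaving out replicate 3 of every group, and the slide and replicate blocks together, were added after the data were seen.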

Additional observations from a re-analysis of the deposited data

Results flagged for a closer look

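The 4OHT response in the presence of MG132 differed from that in its absence for 14 named pathway genes by the interaction term of limma (adjusted p as given, over all genes, 3 arrays per group). The difference is positive where the response with MG132 was the more positive one, and no explanation was tested.

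In 3 genes both responses were called and had opposite signs. Bcl3 differed by -1.4 ± 0.17 (adjusted p = 0.0018), with -0.48 in the presence of MG132 and 0.92 in its absence. The response of -0.48 was not called in 6 of 25 other settings, slide as a block among them (adjusted p up to 0.15). Tnfrsf25 differed by -2.99 ± 0.37 (adjusted p = 0.002), with -1.06 and 1.93. Its response of -1.06 was not called in 4 of 25 other settings, slide as a block among them (adjusted p up to 0.1). Tnfrsf1b differed by 0.81 ± 0.15 (adjusted p = 0.011), with 0.32 and -0.49. In a further 4 genes 1 of the responses did not pass the test, so no reversal is shown. Cx3cl1 differed by 1.64 ± 0.19 (adjusted p = 0.0014), with 0.30 (not called) and -1.34. Isg20 differed by 1.73 ± 0.32 (adjusted p = 0.011), with 1.48 and -0.25 (not called), and Tbk1 by -0.47 ± 0.12 (adjusted p = 0.039), with -0.31 and 0.17 (not called). Ripk2 differed by 1.4 ± 0.36 (adjusted p = 0.047), with 0.07 (not called) and -1.34.

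In the remaining genes the fitted responses had the same sign. Ccl25 differed by 2.07 ± 0.28 (adjusted p = 0.0027), with -0.73 in the presence of MG132 and -2.79 in its absence, and Gadd45b by 1.23 ± 0.26 (adjusted p = 0.019), with -0.73 and -1.96. Cxcl14 differed by -1.4 ± 0.29 (adjusted p = 0.017), with 1.49 and 2.89. Tnfaip2 differed by -1.67 ± 0.27 (adjusted p = 0.0068), with 0.28 and 1.95, and Sdc4 by -1.29 ± 0.19 (adjusted p = 0.0036), with 0.77 and 2.06. Ccr4 differed by 1.43 ± 0.35 (adjusted p = 0.038), with 1.61 and 0.18, and Ikbkg by 0.85 ± 0.20 (adjusted p = 0.034), with 0.86 and 0.02. The calls of Ripk2, Ccr4, Ikbkg and Tbk1 were lost in 17 of 23, 14 of 22, 13 of 23 and 13 of 23 other settings. The call of Gadd45b was lost in 7 of 23 (slide as a block among them), that of Cxcl14 in 4 (adjusted p up to 0.47), those of Isg20 and Tnfrsf1b in 3 each (slide as a block among them, adjusted p up to 0.16 and 0.099) and that of Tnfaip2 in 1. Those of Bcl3, Sdc4, Ccl25, Cx3cl1 and Tnfrsf25 were lost in none of 23.

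Relb differed by 0.62 ± 0.12, with 0.37 in the presence of MG132 and -0.25 in its absence. All 3 arrays lay above those without 4OHT in the first case and below them in the second, and the difference was not tested, because Relb was chosen on these arrays.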

How the results depend on the processing

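Some of the other settings could not move a fitted change of a member. The series-wide table held the same intensities. A replicate block, a fit to only the arrays compared, or leaving out an array of a group outside the comparison keeps the fitted change as it was. The counts that follow include such values and so do not measure stability. Of 1436 values of the members under other settings, 1332 moved by less than 1 SD between arrays and 101 moved by more. The other 3 were changes large beside their SE that changed sign. With normexp correction Birc3 gave 0.01 for 4OHT against untreated cells and 0.04 for both compounds against MG132, and with the mean over probes Nfkbiz gave -0.01 for MG132 against untreated cells. Sign changes of values smaller beside their SE were not counted apart. An example is Nfkb2 for 4OHT against untreated cells, at 0.05 and at -0.13 with median centring. Among other pathway genes, Il6 for both against 4OHT was -1.48 with slide as a block and -1.20 with slide and replicate blocks, Nfkb1 for both against untreated cells was -0.02 with median centring, and Tnfaip8l2 was 0.08 there with normexp correction. The causes were not tested. Ccl20, Cxcl10, Ccl2 and Birc3 have no value when a signal is asked for on all 12 arrays, and dim probes limit Ccl2 and Birc3.

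Genes called for 4OHT against untreated cells numbered 7667, against 14466 with no filter and 5072 with only the arrays compared. With slide as a block the counts of all genes and of other pathway genes were 7022 and 41 for both against untreated cells, 2987 and 23 for both against MG132, 5336 and 30 for both against 4OHT, and 802 and 9 for the difference of the responses. With slide and replicate blocks they were 6055 and 34, 2312 and 18, 4833 and 22, and 804 and 8 in the same order. Within slide 2, both against MG132 gave 2090 and 19, and within slide 1, MG132 against untreated cells gave 42 pathway genes. Without replicate 3 of every group, the difference gave 2910 and 28. Leaving out 1 array at a time gave 5763 to 8577 genes for 4OHT, 9531 to 13063 for MG132 and 12890 to 16472 for both, each against untreated cells, 4620 to 8828 for both against MG132, 11465 to 14342 for both against 4OHT, and 1037 to 2529 for the difference. The pathway counts were 52 to 63, 42 to 67, 71 to 83, 32 to 54, 61 to 73 and 9 to 23 in that order. The lowest counts came without untreated replicate 2 (42), replicate 2 of both compounds (4620 and 1037) and replicate 1 of both compounds (9), and the highest for the difference without 4OHT replicate 3 (2529 and 23).

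Median centring changed the split of calls, to 2263 higher and 5419 lower for 4OHT, 3496 and 9554 for MG132, 4303 and 10107 for both against untreated cells, 2440 and 3509 for both against MG132 and 4994 and 7960 for both against 4OHT, against 3731 and 3936, 6473 and 5094, 8900 and 6032, 3724 and 3385, and 7878 and 5602. For 4OHT the split was also 7068 and 3257 with normexp correction, 2970 and 4848 with quantile scaling and 10698 and 3768 with no filter, and for both against untreated cells 6696 and 7144 with quantile scaling. Arrays of the same replicate number in different groups correlated in their deviations at -0.06 to 0.16 (replicate 1), 0.07 to 0.15 (replicate 2) and 0.12 to 0.41 (replicate 3), against -0.29 to 0.19 for different numbers, so pairing was not established. The replicate block gave 8829, 12666, 15775, 8635, 14487 and 2565 genes, and 66, 70, 83, 55, 81 and 17 pathway genes, for the 6 contrasts in the order of the leave-one-out counts.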
